A study of Homo sapiens with 6 samples.

Results

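OTUB1 and the ubiquitin-conjugating enzymes it binds were followed in U2OS cells, an established human osteosarcoma line, given a miR-542-3p mimic or a negative control mimic. The set held 7 genes: the deubiquitinases OTUB1 and OTUB2, and the E2 enzymes UBE2D1, UBE2D2, UBE2D3, UBE2N and UBE2E1. Its members were every probe that the array annotation pairs with 1 of these symbols alone. Of 47323 probes on the array, 9 met that rule: 3 for OTUB1, 3 for OTUB2, 1 for UBE2N and 2 for UBE2E1. No probe is listed here for UBE2D1, UBE2D2 or UBE2D3, which were not analysed here. A probe was kept where 3 or more arrays gave it a detection p under 0.05. Of the 9 probes 6 were kept, and they were tested among the 18113 kept probes of the whole array.

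The mimic group had 3 arrays and the control group 3, all of RNA taken 48 h after transfection. A microRNA mimic is a synthetic RNA that acts in the cell as the mature microRNA, which guides Argonaute proteins to matching transcripts. The labels number the samples of each group but do not say that the numbers stand for separate cultures. The p-values therefore cover the spread between these arrays alone, and that spread may be technical. The cells are 1 cancer line, and a total RNA array cannot tell fewer expressing cells from less RNA per cell.

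Ubiquitin is attached to proteins by a relay in which an E1 enzyme charges an E2 enzyme and an E3 ligase directs the transfer. OTUB1 is a cysteine protease of the OTU family that trims ubiquitin chains. It is also known for a second, non-catalytic action: it binds E2 enzymes of the UBE2D and UBE2E families and UBE2N while they carry ubiquitin, and blocks the transfer. By this action it limits the chains that UBE2N builds with RNF168 at broken DNA, and it is known to stabilise p53 by restraining UBE2D with MDM2.

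The arrays were close in median intensity, but each mimic array detected fewer probes than each control array. Probes detected numbered 17966, 18199 and 17848 on the mimic arrays, against 18652, 18570 and 18283 on the control arrays. The part of this difference in the detection filter and the bounds below was not tested. Median intensity ranged from 132.2 to 151.4, and normalized arrays of 1 group correlated at 0.982 to 0.990 over the kept probes, against 0.953 to 0.966 between groups. Of 8 mesenchymal markers, 7 were detected on all 6 arrays, as were 3 of 6 epithelial markers (EPCAM, KRT8 and KRT18) and 1 of 6 leukocyte markers (CD68). CDH1, KRT7, CD3E and LYZ were detected on no array. Of the 6 leukocyte markers 5 have a probe. The sums that follow count undetected probes too, so they are in part background. The summed intensity was 25472.9 to 28114.4 with the mimic and 24821.8 to 30414.0 with the control for the mesenchymal list, and 791.8 to 948.5 with the mimic and 759.1 to 879.3 with the control for the leukocyte list. The epithelial sum was lower with the mimic, at 1792.2 to 2001.7 against 2017.4 to 2404.0 with the control, and its part in the results below was not tested. As a check of the labels, the brighter probe of BIRC5 (ILMN_2349459), a reported target of the microRNA that encodes survivin, was detected on all 6 arrays. It averaged 8.69 ± 0.37 with the mimic and 11.96 ± 0.03 with the control on the normalized log2 scale (SD, n = 3 each), a change of -3.28 ± 0.19 (SE; limma adjusted p = 7.4e-05).

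The 5′ flanks of OTUB1 and UBE2E1 are shown for reference, OTUB1 because it names the set. UBE2E1 is shown because RefSeq lists 2 transcription starts for it and its 2 probes are assigned to different transcript records. Whether either probe reads transcripts of only 1 start is not known. Each sequence is the 250 bases before a RefSeq start (build GRCh38.p14), 5′ to 3′ on the gene's strand. OTUB1 lies at chr11:63986188-63986437 and the UBE2E1 flanks at chr3:23805705-23805954 and chr3:23810204-23810453, all on the plus strand. Capitals mark GGGCGG (the GC box), CCAAT and TATAAA, each searched on both strands with overlaps allowed.
OTUB1: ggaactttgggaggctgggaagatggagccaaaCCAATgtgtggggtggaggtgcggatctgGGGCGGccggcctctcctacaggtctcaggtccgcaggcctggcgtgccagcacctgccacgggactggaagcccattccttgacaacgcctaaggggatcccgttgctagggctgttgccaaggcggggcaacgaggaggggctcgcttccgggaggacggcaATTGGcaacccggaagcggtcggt
UBE2E1, first start: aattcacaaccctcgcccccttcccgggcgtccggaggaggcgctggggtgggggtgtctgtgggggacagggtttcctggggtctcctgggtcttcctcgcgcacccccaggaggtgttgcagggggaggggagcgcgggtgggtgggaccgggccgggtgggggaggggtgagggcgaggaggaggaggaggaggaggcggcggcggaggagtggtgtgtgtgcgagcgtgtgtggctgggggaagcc
UBE2E1, second start: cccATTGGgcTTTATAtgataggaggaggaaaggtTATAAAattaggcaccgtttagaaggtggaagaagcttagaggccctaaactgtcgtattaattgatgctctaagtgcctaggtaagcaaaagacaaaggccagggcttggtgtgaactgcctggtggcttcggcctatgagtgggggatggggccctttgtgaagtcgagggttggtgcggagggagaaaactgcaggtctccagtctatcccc
The OTUB1 flank held 1 GC box, 2 CCAAT letters and no TATAAA, with 65.2% G or C. The first UBE2E1 flank held none of the 3 motifs and 72.4% G or C, while the second held 2 TATAAA and 1 CCAAT and 50.4% G or C. Of 35116 listed flanks of this length, 42.6% held a GC box, 32.0% CCAAT and 10.7% TATAAA. These matches are letters only. The arrays measured transcripts, and no measurement here bears on binding at these flanks.

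Transcripts of all 4 genes with a detected probe were lower with the mimic than with the control mimic. On the background-corrected scale, OTUB1 was at 35.7% of its control level, UBE2E1 at 31.5% and UBE2N at 51.5%. OTUB2 was at least 2.60-fold lower on that scale. All 6 kept probes were called lower (limma, adjusted p under 0.05 over all kept probes), where 12.3% of all kept probes were called lower, 11.3% higher and 23.6% in either direction. On all 6, every mimic array lay below every control array, as was the case for 19.9% of kept probes. OTUB2 passed the detection filter through its control arrays alone, so it had to differ, and it adds no support to these counts. The dimmer OTUB1 probe was detected on 3 control arrays and 1 mimic array. Its control arrays alone met the filter, so it adds only weak support. The members were chosen with earlier results of these data known, so the shares over all probes are background and no test of the set. By fitted fold on this scale, OTUB1, OTUB2 and UBE2E1 were at least 2-fold lower, as were 4.62% of all measured genes. UBE2N was not. With no background correction OTUB1 changed by -0.97 and OTUB2 by -0.71, both short of 2-fold, and UBE2E1 by -1.55.

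Values below are normalized log2 signals unless an intensity is named. The brightest OTUB1 probe (ILMN_1723871, assigned to NM_017670) read 6.83, 7.11 and 7.18 on mimic arrays 1, 2 and 3, against 8.53, 8.52 and 8.53 on the control arrays. The control arrays were almost level, and every mimic array lay far below them. OTUB1 averaged 7.04 ± 0.18 with the mimic and 8.53 ± 0.01 with the control (SD, n = 3 each). It fell by 1.49 ± 0.13 (SE; 95% interval of the change -1.79 to -1.18; limma adjusted p = 3.0e-04). Among all kept probes, 242 had a larger fall, or 1.34%. In the deposited intensities, before any background step, the same probe read 236.0, 236.5 and 252.6 with the mimic, against 492.5, 465.8 and 509.9 with the control.

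The other 2 OTUB1 probes are both assigned to NR_003089, a non-coding transcript record of the gene. One of them (ILMN_2354855) read 5.38, 5.85 and 5.40 on the mimic arrays, where only array 2 detected it, against 7.0, 6.62 and 6.85 on the control arrays, which all did. It fell by 1.28 ± 0.17 (SE; limma adjusted p = 0.0016). The last probe (ILMN_2265222) was detected on no array, with values of 4.55, 4.47 and 4.51 with the mimic and 4.47, 4.73 and 4.56 with the control, and was not tested. Thus both kept OTUB1 probes fell, the dimmer one against mimic values mostly not above background, and the third probe was not above background in either group.

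OTUB2 is the closest relative of OTUB1 and is, like it, a ubiquitin protease. Its probe ILMN_1799198 read 5.10, 5.45 and 4.83 on the mimic arrays, none of which detected it, against 6.80, 6.94 and 6.89 on the control arrays, which all did. The groups did not overlap, and the 3 control values lay close together. The fitted change was -1.75 ± 0.17 (SE; limma adjusted p = 3.9e-04), with means of 5.13 ± 0.31 with the mimic and 6.88 ± 0.07 with the control (SD, n = 3 each). Since the mimic arrays give only a bound, OTUB2 was at least 2.60-fold lower, taking on each mimic array the lowest detected signal in place of its own lower one. This bound, like the others of its kind below, holds on the background-corrected scale, and the change was -0.71 with no correction. Intensities were 148.8, 143.3 and 128.8 with the mimic, against 229.7, 229.4 and 245.6 with the control. The other 2 OTUB2 probes (ILMN_1684983 and ILMN_1792012) were detected on no array, with log2 values between 4.43 and 4.69 in all 6, and were not tested.

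UBE2E1, an E2 enzyme of the family with an extended N-terminal region, gave the brightest signal of its own 2 probes at ILMN_1806778. That probe read 9.69, 9.91 and 9.78 on the mimic arrays, against 11.58, 11.52 and 11.28 on the control arrays. Its intensities were 962.9, 1041.7 and 961.4 with the mimic and 3237.1, 2982.1 and 2728.0 with the control, so the groups were far apart before any correction. UBE2E1 averaged 9.79 ± 0.11 with the mimic and 11.46 ± 0.16 with the control (SD, n = 3 each), and fell by 1.66 ± 0.14 (SE; 95% interval of the change -1.98 to -1.35; limma adjusted p = 2.1e-04).

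The other UBE2E1 probe (ILMN_2371685, assigned to NM_003341 where the first is assigned to NM_182666) read 6.30, 6.53 and 5.95 with the mimic, against 8.30, 8.33 and 7.62 with the control. Control array 3 was the lowest control value of both probes, and the groups still did not overlap. This probe fell by 1.82 ± 0.23 (SE; limma adjusted p = 0.0012). The probes assigned to the 2 UBE2E1 records were thus both lower, and the change of each probe lay inside the 95% interval of the other. Where on the transcripts these probes lie was not examined here, so separate transcripts cannot be told apart. Of all kept probes, 0.939% fell by more than the bright probe and 0.657% by more than the dim one.

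UBE2N, also named UBC13, builds ubiquitin chains that act as signals in DNA repair and inflammation rather than in degradation. Its only listed probe (ILMN_1793651) read 7.29, 7.79 and 7.38 on the mimic arrays, against 8.52, 8.49 and 8.32 on the control arrays. Mimic array 2 was the highest of its group and was still below the lowest control array. UBE2N averaged 7.49 ± 0.27 with the mimic and 8.44 ± 0.11 with the control (SD, n = 3 each), a fall of 0.96 ± 0.16 (SE; 95% interval of the change -1.33 to -0.59; limma adjusted p = 0.0042). A larger fall was found for 823 kept probes, or 4.54%. UBE2NL, a near-identical copy of UBE2N, has 1 probe here, which was detected on no array. Where on the transcripts the probes lie was not examined here, so signal from near-identical copies cannot be told apart in these data.

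**Figure D1:**
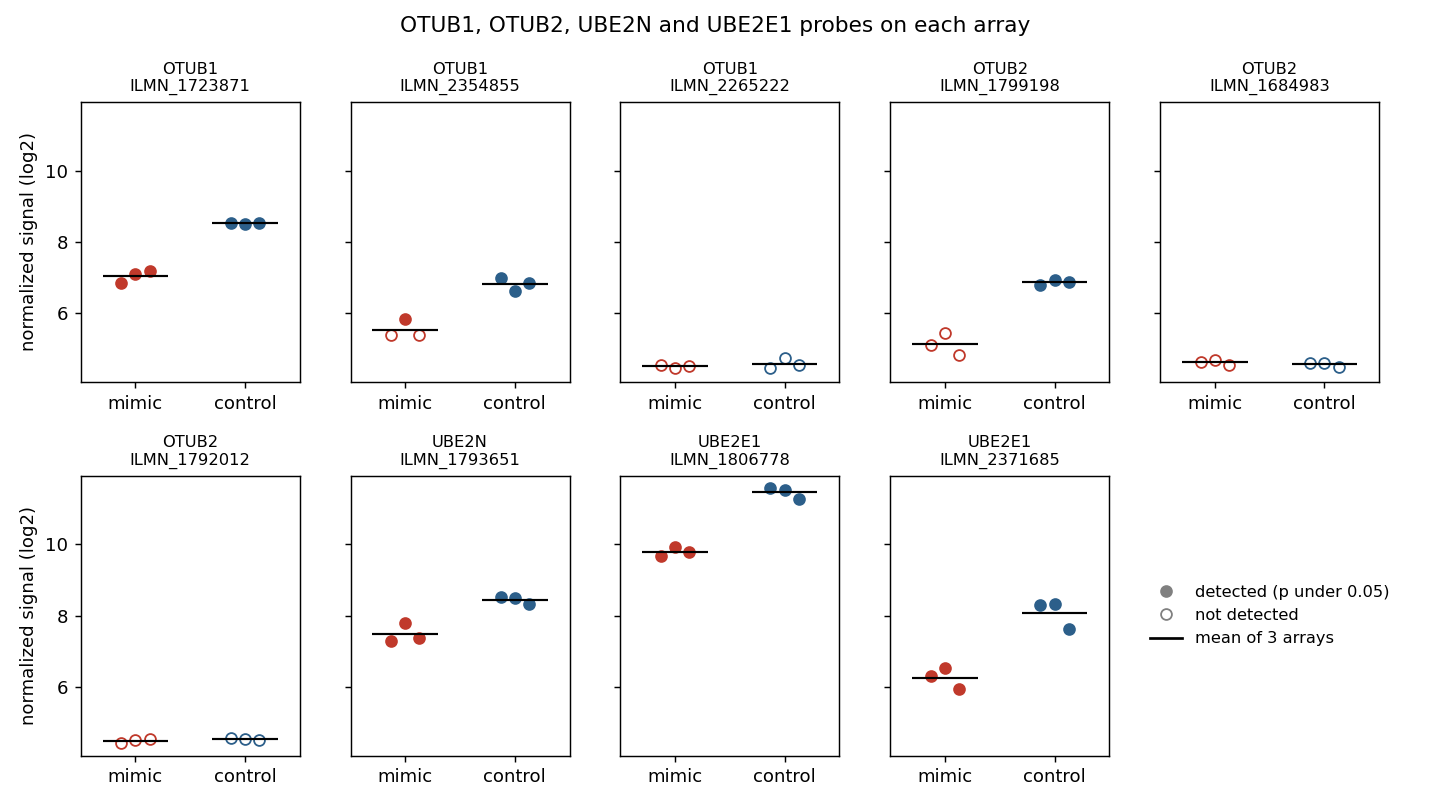
Each panel plots the normalized log2 signal (y axis) of 1 probe of OTUB1, OTUB2, UBE2N or UBE2E1 on the 3 mimic arrays (left) and the 3 control arrays (right). Filled points were detected, open points were not, and lines are group means. The mimic arrays lie below the control arrays for the 6 kept probes, and the other 3 probes stay at background near 4.5 in both groups.

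Whether the falls differed in size was examined within each array, by taking the log2 difference between OTUB1 and each other gene and comparing it between groups. The change of OTUB1 minus that of UBE2N was -0.53, with per-array differences of -0.46, -0.68 and -0.20 on the mimic arrays and 0.01, 0.03 and 0.21 on the control arrays. These groups do not overlap, and the two-sided exact permutation test gave p = 0.1, the smallest that 3 against 3 arrays allow (adjusted p = 0.3 over the 3 pairs). OTUB1 minus UBE2E1 gave 0.18 (exact permutation p = 0.3, adjusted p = 0.3). OTUB1 minus OTUB2 gave 0.26 (exact permutation p = 0.2, adjusted p = 0.3), but OTUB2 is only bounded on the mimic arrays and this difference turned negative with no background correction. The differences also moved with the background step. Uncorrected, OTUB1 minus UBE2E1 was 0.58 and OTUB1 minus UBE2N -0.32, each with an unadjusted exact permutation p = 0.1. This test cannot give a smaller p with 3 against 3 arrays, so it shows neither that the falls differed nor that they were equal.

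The falls were smaller without the background step, most of all for dim probes. Left uncorrected for background, the bright OTUB1 probe changed by -0.97 and the dim one by -0.52. OTUB2 changed by -0.71, UBE2N by -0.65, and the bright and dim UBE2E1 probes by -1.55 and -1.02. Each was still called lower. Over all planned ways of processing, including each array left out in turn, the 105 values that could be computed for these 6 probes were all called lower at the threshold in use. Of the 105 values, 15 were of OTUB2, which had to differ, and add no support. Another 16 were of the dimmer OTUB1 probe, whose control arrays alone met the filter, and add only weak support. Leaving out an array moved the bright OTUB1 probe between -1.55 and -1.38, the bright UBE2E1 probe between -1.76 and -1.61 and UBE2N between -1.11 and -0.86 (highest limma adjusted p = 0.0193). OTUB2 gave no value when a control array was left out, as it then no longer met the detection filter.

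**Figure D2:**
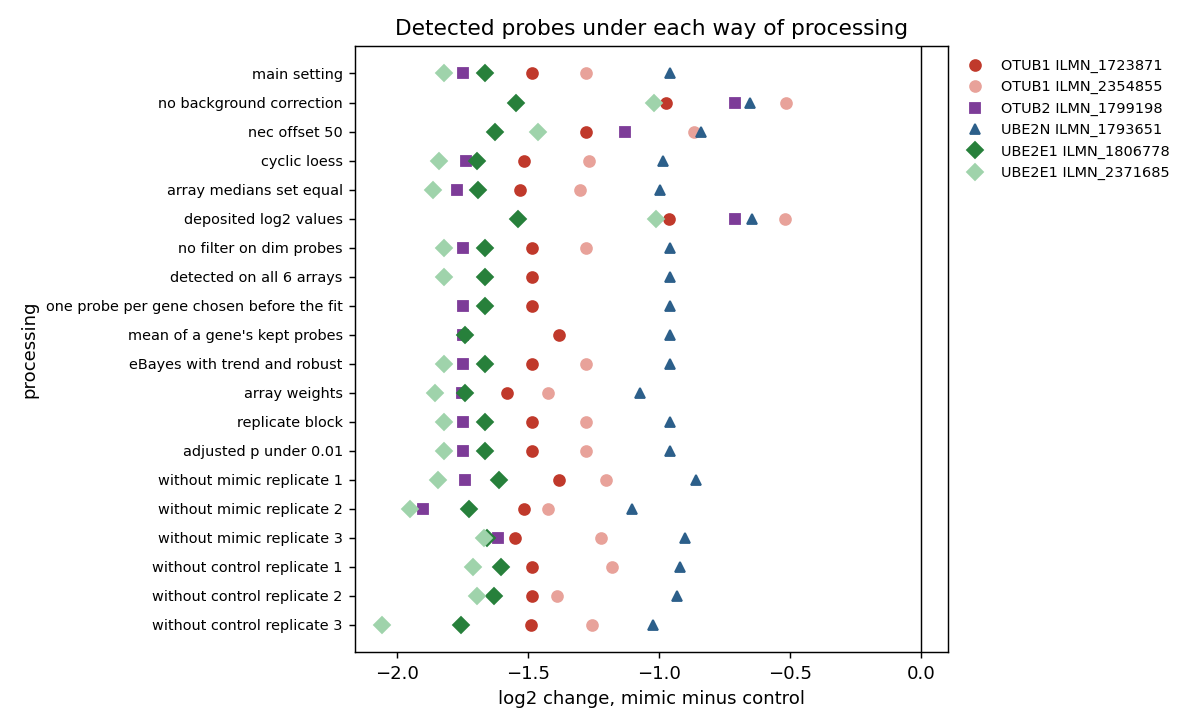
The log2 change, mimic minus control (x axis), of the 6 kept probes is plotted for each way of processing (y axis), with 1 colour a probe. All points lie below 0, and those of dim probes move toward 0 when the background is not corrected or when the deposited log2 values are used.

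Among other E2 enzymes, relatives of the same families moved both ways. Of 12 listed, 8 were measured, where a gene stands by its brightest kept probe; 3 fell, 2 rose and 3 were not called, while of all 10734 measured genes 13.6% were called lower and 12.4% higher. Without 1 array, 2 to 4 of the 8 were called, with 2 when mimic replicate 1 was omitted. Their median change was -0.09, against 0.02 over all measured genes. UBE2E2, of the same family as UBE2E1, rose: it read 10.85, 10.80 and 10.92 on the mimic arrays, against 10.22, 10.29 and 10.07 on the control arrays, a change of 0.66 ± 0.12 (SE; limma adjusted p = 0.0066). UBE2E3, the remaining family member, changed by 0.10 ± 0.12 (limma adjusted p = 0.597). Its 4 kept probes gave changes from 0.10 to 0.41, none called. UBE2E1 was thus the member of its family that fell, with an interval of its change that does not reach those of UBE2E2 (0.38 to 0.95) or UBE2E3, though the difference between family members was not tested.

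UBE2D4, of the UBE2D family, fell by 0.58 ± 0.13 (SE; limma adjusted p = 0.0122). It read 8.17, 8.41 and 8.25 with the mimic, against 8.93, 8.87 and 8.79 with the control, and its call ended without mimic replicate 1 (adjusted p = 0.0511). UBE2V1 and UBE2V2 are inactive E2 relatives that pair with UBE2N to set its chain type. UBE2V2, the partner known from DNA damage tolerance, fell by 0.70 ± 0.13 (limma adjusted p = 0.0067), with 9.51, 9.46 and 9.37 on the mimic arrays against 10.13, 10.31 and 10.00 on the control arrays. UBE2V1, the partner known from NF-kB signalling, rose by 0.44 ± 0.12 (limma adjusted p = 0.0333), but its call was lost when any single array but control 2 was omitted (adjusted p up to 0.101). UBE2G2, an E2 of degradation at the endoplasmic reticulum, fell by 0.49 ± 0.15 (limma adjusted p = 0.0408), a call lost on omitting any single array but mimic 2 (adjusted p up to 0.119). UBE2K (0.06) and UBE2C (-0.24) did not pass.

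**Figure D3:**
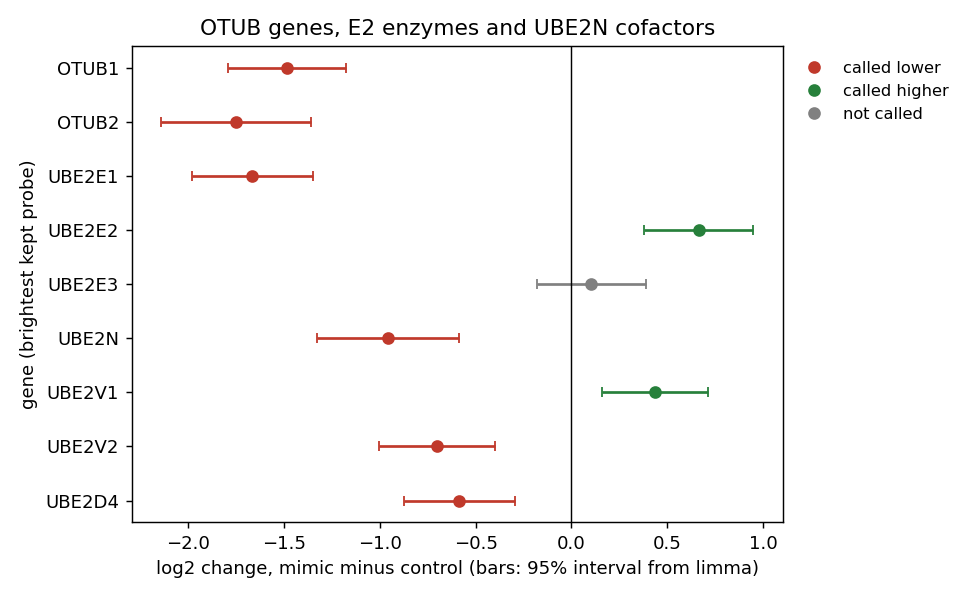
The x axis gives the log2 change, mimic minus control, of each gene's brightest kept probe, with its 95% interval from limma as a bar. OTUB1, OTUB2, UBE2E1 and UBE2N lie at the low end between -1.75 and -0.96, UBE2V2 and UBE2D4 fell by less, UBE2E2 and UBE2V1 rose, and the UBE2E3 interval spans 0.

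Of 14 other genes listed for the OTU family, ALG13 among them, 9 were measured. By the brightest kept probe 1 rose and 8 were not called, and their median was 0.13. None was called lower by limma, nor at an unadjusted p under 0.05, where 13.6% of all measured genes were called lower. A count of 0 in 9 genes is not a result about them. The 1 that rose was OTULIN, which cuts linear ubiquitin chains. It read 9.31, 9.45 and 9.70 with the mimic, against 8.08, 8.58 and 8.50 with the control, a change of 1.10 ± 0.17 (SE; limma adjusted p = 0.0031). VCPIP1 (0.37), TNFAIP3 (0.39), which encodes the NF-kB inhibitor A20, OTUD3 (0.22) and YOD1 (-0.11) did not pass. ALG13 was not called by its brightest probe (-0.03), but a dimmer kept probe rose by 1.06 (limma adjusted p = 0.0034).

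Of 26 ubiquitin ligases listed, 20 were measured. Of these, 4 fell, 2 rose and 14 were not called, and their median was -0.06, beside 13.6% lower and 12.4% higher among all measured genes. One of the 4, PELI1, had to differ and adds no support. RNF8, the ligase that works with UBE2N at DNA breaks, fell by 0.63 ± 0.12 (SE; limma adjusted p = 0.0079), with 7.42, 7.45 and 7.51 on the mimic arrays against 7.96, 8.18 and 8.12 on the control arrays. PELI1, a ligase of Toll-like receptor signalling, was detected on no mimic array and all control arrays and was at least 2.0-fold lower (limma adjusted p = 3.4e-04). It passed the filter through its control arrays alone, and with no background correction its change was -0.51. ITCH fell by 1.08 ± 0.17 (limma adjusted p = 0.0027), or by 0.48 with no background correction. MDM2, the ligase of p53, rose by 1.44 ± 0.22 (limma adjusted p = 0.0025), or by 0.63 with no background correction, and was detected on 2 of 3 control arrays. STUB1, a ligase that works with chaperones, rose by 0.66 ± 0.13 (limma adjusted p = 0.0081), although its dimmer probe changed by 0.24 and was not called (limma adjusted p = 0.361), and the mean of both probes was not called either. The remaining ligase that fell was BIRC2, which is given with the OTUB1 clients. NEDD4 was not called by its brightest probe (-0.21), but a dimmer kept probe fell by 0.96 (limma adjusted p = 0.0102).

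Of 15 proteins reported as clients or substrates of OTUB1, 12 were measured by their transcripts. Of these, 2 fell, 2 rose and 8 were not called, near the 13.6% lower and 12.4% higher of all measured genes, and their median was 0.04. SLC7A11, the cystine carrier, fell by 0.72 ± 0.16 (SE; limma adjusted p = 0.0119). BIRC2, an inhibitor of apoptosis, fell by 0.43 ± 0.12 (limma adjusted p = 0.0332), and its other probe by 0.61 ± 0.15. Omitting any single array but mimic 2 took away the call of its brighter probe (adjusted p up to 0.114). MDM2 is on this list too. DEPTOR, an inhibitor of mTOR, was detected on all mimic arrays and no control array and was at least 1.35-fold higher (limma adjusted p = 0.0398). Its call ended when any 1 control array was left out (highest adjusted p = 0.107), and it gave no value without a mimic array. The call also ended with no background correction (change 0.23, adjusted p = 0.0846), a trended robust variance (0.0642), no filter (0.0915), the authors' deposited log2 values (0.0834) and a larger offset of 50 (0.0533). DEPTOR was kept through its mimic arrays alone, so it had to differ and adds no support. SMAD3 (0.39, limma adjusted p = 0.0584) was not called, but was called higher under 6 of 19 alternatives, among them no background correction (0.33, adjusted p = 0.0156). These are transcript levels and give no level of the proteins that OTUB1 acts on.

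Of 8 ubiquitin and E1 genes listed, 4 were measured. By its brightest kept probe, none was called by limma in either direction, nor at an unadjusted p under 0.05. Of all measured genes 26% were called. A count of 0 in 4 genes is not a result about them. UBA1, the main E1 enzyme, averaged 11.94 ± 0.17 with the mimic and 11.92 ± 0.13 with the control (SD, n = 3 each), a change of 0.02 ± 0.14 (SE; limma adjusted p = 0.928). UBB, a ubiquitin gene, changed by 0.18, UBA6 by 0.34 and UBA3 by -0.24. The other kept UBB probe changed by 0.33 and was not called (limma unadjusted p = 0.0199, adjusted p = 0.0721).

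**Figure D4:**
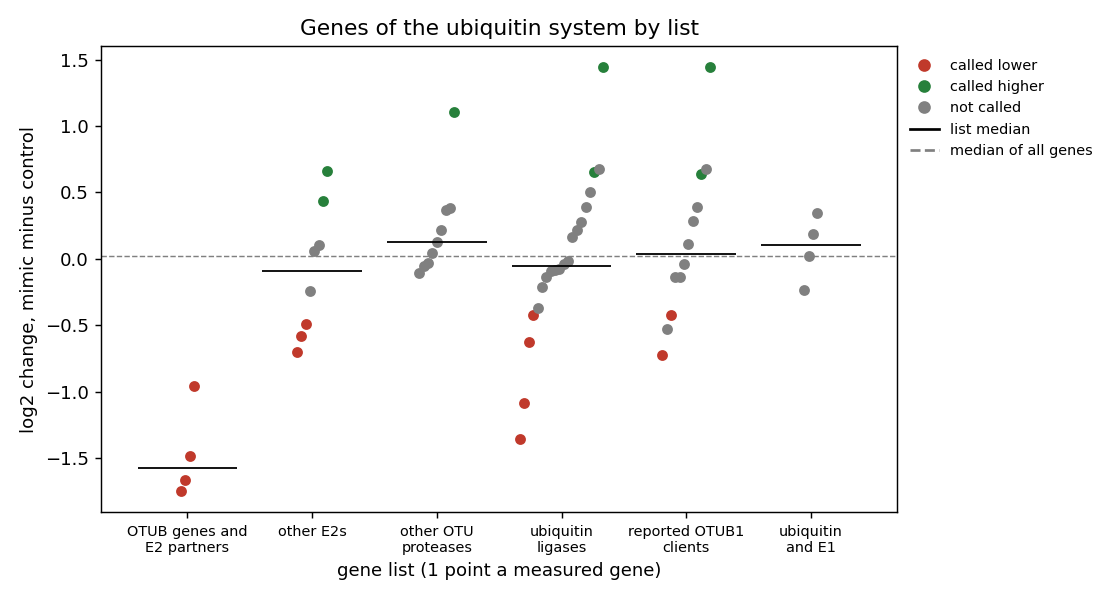
Each point is the log2 change, mimic minus control (y axis), of 1 measured gene, by list (x axis), coloured by its limma call, with the list median as a line and the median of all genes dashed. The 4 OTUB and E2 partner genes lie from -1.75 to -0.96, while the other lists have medians between -0.09 and 0.13 and members on both sides of 0.

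The genes whose pattern over the 6 arrays was most like that of OTUB1 were PPP2R1A, RALB, CDS1, ETS1 and TMEM184B. Likeness was the Euclidean distance between log2 values centred on each probe's mean, over 10733 other genes, and ran from 0.22 for PPP2R1A to 0.25 for TMEM184B. PPP2R1A, the scaffold subunit of protein phosphatase 2A, read 10.02, 10.22 and 10.15 on the mimic arrays, against 11.72, 11.74 and 11.76 on the control arrays. The genes detected in both groups changed by -1.61 (PPP2R1A), -1.51 (RALB), -1.60 (ETS1) and -1.35 (TMEM184B). Picking genes by this distance selects changes near that of OTUB1, so these values are no separate result. CDS1 was detected on no mimic array and on all 3 control arrays, and was at least 1.72-fold lower. Its likeness to OTUB1 thus rests on mimic values not above background.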

How the data were processed

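RNA of 3 mimic and 3 control samples was measured on Illumina bead arrays. Per the labels' protocols, RNA was column-purified with DNase treatment and made into biotin-labelled cRNA. The authors deposited a non-normalized intensity for each probe and array, with a detection p-value beside it per the file headers. The sources used here do not give the scanner software or the slides. The authors also deposited a table of log2 values, used as an alternative. The sources used here do not say how these were made. Probes were named through GEO's platform annotation, checked by Entrez identifier against RefSeq (GRCh38.p14), where no symbol changed.

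Background was removed by limma 3.58.1 (R 4.3.3), using nec with an offset of 16 and with the level of the negative controls worked out from detection p-values. Quantile normalization and log2 followed. Kept probes had a detection p under 0.05 on at least 3 arrays. All 18113 were fitted with lmFit and eBayes, mimic minus control, with no covariate and Benjamini-Hochberg adjustment. Where a probe was detected on no array of 1 group, "at least N-fold" sets the brighter group's mean against a dim-group mean in which each array counts with its lowest signal of any detected probe, or with the probe's own value if that is higher. The number of arrays limits the precision. The fit was tested on simulated data. Named genes were every member, up to 5 genes of each list by adjusted p, the 5 most like OTUB1, and BIRC5. UBE2NL, UBE2E3, UBE2K, UBE2C, ALG13 and NEDD4 were named after their values were seen. The members, lists and tests were chosen with earlier results of these data known. Alternatives were other background steps, normalizations, filters, units of the fit, variance models, array weights, a stricter threshold, a block for the replicate number, omission of each array, and the deposited log2 values.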

Additional observations from a re-analysis of the deposited data

How the results depend on the processing

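The calls of the 6 kept OTUB1, OTUB2, UBE2N and UBE2E1 probes held in all 105 values computed under the alternatives. Under the mean of a gene's kept probes, these values were of genes and not of single probes. The 15 values of OTUB2 among the 105 add no support, since it had to differ. The 16 of the dimmer OTUB1 probe add only weak support, since its control arrays alone met the filter. No value was obtained for OTUB2 without a control array, and none for OTUB2 or the dimmer OTUB1 probe when detection on all 6 arrays was asked for. Dimmer probes also gave no value of their own where 1 probe stood for a gene. The difference of changes, OTUB1 minus OTUB2, reversed to -0.26 with no background correction, -0.15 with an offset of 50 and -0.25 with the deposited log2 values. The difference OTUB1 minus UBE2E1 was 0.58, 0.35 and 0.58 under the same 3 settings. UBA1, not called under any of these, reversed to -0.0049 with cyclic loess and -0.055 with array weights. It ranged from -0.049 to 0.115 when 1 array was left out.

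At an adjusted p under 0.01, 2100 kept probes and 1415 genes were called, against 4278 and 2793 at 0.05, with 2 other E2 enzymes and 1 OTUB1 client. Leaving out 1 array gave 2803 to 4294 probes, 1845 to 2818 genes, 2 to 4 other E2 enzymes and 2 to 4 OTUB1 clients. The lowest count of probes came without control replicate 1. Other E2 enzymes numbered 2 without mimic replicate 1, and 3 without mimic replicate 3, control replicate 1 or control replicate 3. OTUB1 clients numbered 2 without mimic replicate 1 or 3 and without control replicate 2 or 3. With the mean of a gene's kept probes, 2 other OTU family genes were called. Same-numbered mimic and control arrays deviated together only weakly (correlations 0.02, 0.07 and 0.10). Mimic arrays 2 and 3 were closest to the control arrays of their own number, and mimic array 1 was not. The labels do not say that a number marks a shared culture or day. With the replicate number as a block, 4089 probes were called, the 6 kept member probes among them, and 3 other E2 enzymes in place of 5. Signal over background limits the dim probes: for OTUB2 and PELI1 on the mimic arrays and for DEPTOR on the control arrays only a bound exists. The cause of these shifts was not tested.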
